A study of Rattus norvegicus with 36 samples.

Results

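The known miRNAs of rat lung were examined 1 week after whole-thorax irradiation with 15 Gy, given at once. Of the 36 small RNA libraries of blood and lung in the series, 3 lung libraries at 15 Gy and 3 lung libraries at 0 Gy, both at 1 week, were compared. They came from female WAG/RijCmcr rats, with X-rays as the radiation and with unirradiated rats of the same age as the 0 Gy group, and the heart and a part of the liver lay in the field. The RNA was taken from the right superior lobe of the lung, so all cell types of that lobe are in each library, and fewer cells of a type and less RNA per cell cannot be told apart. The labels give 3 rats per group, whereas the methods of the study give RNA pooled from 3 rats in each library. Where nothing separates the pools further, the p-values measure only the spread between libraries. In the main edgeR fit that spread was estimated over all lung libraries of the series, other weeks included, not over the compared ones alone. The table held 947 rows, of which 458 were annotated as mature rat miRNAs and are called known miRNAs here. Of these, 403 had at least 1 count in the 6 libraries and 242 had enough counts to be tested with edgeR.

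The total count was 1491401, 372932 and 1869051 in the 15 Gy libraries and 1523909, 964989 and 11621 in the 0 Gy libraries. The third 0 Gy library was therefore shallow, and 1 count in it was worth 53.8 CPM (counts scaled to a common library total), and a count of 0 allowed a level of up to 161 CPM (3 counts), which covers counting error only. It held counts for 134 known miRNAs, against 355 and 356 in the other 0 Gy libraries and 303 to 365 in the 15 Gy libraries. The counts of calls and most of the leading fold changes are given with and without it. Levels are CPM after TMM scaling, and a fold change is given on the log2 scale, 15 Gy over 0 Gy. The median log2 fold change of all 499 rows tested was 0.15 with TMM scaling, 0.06 with RLE size factors, -0.16 with library totals and -0.04 without the shallow library, so a change of this size had no fixed direction. The erythrocyte miRNA miR-486-5p, which the file lists as a homolog and not among the known miRNAs, took 5.65%, 2.81% and 2.78% of the counts in the 15 Gy libraries, against 0.69%, 1.05% and 5.79% in the 0 Gy libraries.

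MicroRNAs are short RNAs that guide Argonaute proteins to messenger RNAs, mostly by pairing of their seed, the bases 2 to 8, and lower the output of the messages they bind. In the lung, miR-126 is a miRNA of endothelial cells, the miR-200 family belongs to epithelium, miR-143 and miR-145 to smooth muscle, and miR-142 to cells of the blood lineages. Irradiation of the thorax injures endothelium and epithelium, depletes and later recruits leukocytes, and can end in pneumonitis and fibrosis, in which miR-21 and miR-29 are much studied.

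The mature sequences of some of the miRNAs described below are printed from the RefSeq miRNA annotation of the GRCr8 assembly, 5′ to 3′, with the seed in capitals. RefSeq entries were matched by name. The first 6 are those that passed the test when known miRNAs were fitted alone, and the other 11 are the miR-142 arms, the endothelial miR-126a-3p, and the miR-29 and miR-15/16 families, whose members share a seed. None of these 11 passed over all rows or among known miRNAs alone.
miR-338-3p: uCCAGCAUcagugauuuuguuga
miR-3065-5p: uCAACAAAaucacugaugcu
miR-224-5p: cAAGUCACuagugguuccguuu
miR-423-5p: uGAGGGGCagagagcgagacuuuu
miR-664-2-5p: cUGGCUGGggaaaaugauugg
miR-702-3p: uGCCCACCcuuuaccccacucca
miR-142-5p: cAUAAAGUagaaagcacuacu
miR-142-3p: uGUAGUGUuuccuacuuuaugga
miR-126a-3p: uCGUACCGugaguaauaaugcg
miR-29a-3p: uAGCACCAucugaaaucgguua
miR-29b-3p: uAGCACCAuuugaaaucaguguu
miR-29c-3p: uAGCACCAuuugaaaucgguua
miR-16-5p: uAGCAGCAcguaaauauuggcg
miR-15b-5p: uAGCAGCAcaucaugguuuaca
miR-195-5p: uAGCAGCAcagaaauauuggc
miR-497-5p: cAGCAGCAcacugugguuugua
miR-322-5p: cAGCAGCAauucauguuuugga

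In the 6 printed first, no seed was shared. miR-338-3p and miR-3065-5p come from opposite strands of one locus (GRCr8 chr10:105796345-105796367 and chr10:105796345-105796364), within the span of the Aatk gene, and miR-3065-5p is the reverse complement of miR-338-3p over 20 bases. miR-224-5p lies on chromosome X within Gabre, miR-423-5p on chromosome 10 within Nsrp1, miR-664-2-5p on chromosome 13 within Rab3gap2 and miR-702-3p on chromosome 12 within Plod3. The gene table gives spans only, so exons and introns were not told apart.

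No miRNA passed an adjusted p of 0.05 in the edgeR quasi-likelihood test over all 499 rows (0 called, 0% of the rows). At an unadjusted p under 0.05, 13 of the 242 known miRNAs were higher and 10 lower at 15 Gy, where 6.41% of all 499 rows were higher and 4.01% lower. Without the shallow 0 Gy library, again 0 rows passed, and 15 of 267 known miRNAs were higher and 26 lower at an unadjusted p under 0.05, beside 6.28% and 7.36% of all 557 rows. When the 242 known miRNAs were fitted and adjusted alone, 6 passed (2.48%), 3 higher and 3 lower, and without the shallow library 11 of 267 passed, 7 higher and 4 lower. DESeq2 called 6 rows, all of them higher, of which miR-423-5p was the only known miRNA (adjusted p = 0.0367), and without the shallow library it called 14, of which miR-423-5p, miR-328a-3p and miR-92b-3p were known. All 3 libraries at 15 Gy lay above both deep 0 Gy libraries for 46 known miRNAs and below them for 59, beside 18.2% and 21.2% of all rows tested. The number of calls therefore differed between these fits.

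miR-338-3p had the smallest p of all rows. It is known from neurons and oligodendrocytes and from epithelium, where it is studied as a brake on proliferation. Its level was 2.81, 2.45 and 3.12 CPM (4, 1 and 6 counts) in the 15 Gy libraries, against 16.9, 16.3 and 0 CPM (31, 19 and 0 counts) in the 0 Gy libraries. The 15 Gy libraries were all low and close to each other, the 2 deep 0 Gy libraries were high, and the 0 of the shallow library is below what that library could show. The level at 15 Gy was 5.30-fold lower, with a log2 fold change of -2.41 (SE 0.47, 95% interval -3.32 to -1.49) and an adjusted p of 0.0645 with edgeR. Without the shallow library it was -2.67 (adjusted p = 0.0693), and among known miRNAs alone -2.43 (adjusted p = 0.0117).

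Its antisense partner miR-3065-5p had 0, 1 and 8 counts at 15 Gy against 29, 18 and 0 counts at 0 Gy, a log2 fold change of -2.66 (SE 0.73, adjusted p = 0.198 in edgeR over all rows, 0.0228 among known miRNAs). Over the 6 libraries the totals were 56 counts for miR-3065-5p and 61 for miR-338-3p. Whether reads were counted by strand is not given in the sources used here, so these values may come from one set of reads. The counts of calls include both.

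miR-224-5p, an X-linked miRNA studied as a target of inflammatory signals and in ovary and liver, was at 9.84, 24.5 and 13.5 CPM in the 15 Gy libraries, against 68.6, 65.04 and 0 CPM in the 0 Gy libraries. Every 15 Gy library was below both deep 0 Gy libraries. The log2 fold change was -1.88 (SE 0.67, adjusted p = 0.32 in edgeR), -2.31 without the shallow library (adjusted p = 0.2), and -2.09 among known miRNAs alone, where it passed (adjusted p = 0.0322).

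The leukocyte miRNA miR-142-5p was at 16.9, 39.3 and 45.3 CPM in the 15 Gy libraries, against 113, 88.1 and 108 CPM in the 0 Gy libraries. Here the shallow library, with 2 counts, stood with the other 0 Gy libraries, and the groups did not overlap. The log2 fold change was -1.59 (SE 0.53, adjusted p = 0.298 in edgeR), and -1.75 without the shallow library. Neither edgeR fit of known miRNAs alone called miR-142-5p (adjusted p = 0.0832 with and 0.0528 without the shallow library). The other arm of the same hairpin, miR-142-3p, was at 7.03, 17.2 and 22.9 CPM against 41.4, 42.8 and 0 CPM, with a log2 fold change of -1.25 (SE 0.57).

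The most abundant miRNA with an unadjusted p under 0.05 was miR-126a-3p, which lies within Egfl7 and maintains the response of endothelium to growth factors. It was at 1988, 4157 and 3210 CPM in the 15 Gy libraries, against 7930, 8932 and 3226 CPM in the 0 Gy libraries. The shallow library, at 60 counts, stood among the 15 Gy libraries, and the deep 0 Gy libraries stood above all of them. The log2 fold change was -1.11 (SE 0.52, adjusted p = 0.445 in edgeR), and -1.64 (adjusted p = 0.262) without the shallow library. The opposite arm, miR-126a-5p, was at 5304, 10678 and 10475 CPM against 10685, 15023 and 5270 CPM, with a log2 fold change of -0.23 (SE 0.50).

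Of the other miRNAs with the smallest p on the lower side, miR-450a-5p was at 72.4, 108 and 155 CPM against 329, 247 and 108 CPM, and miR-374-5p, from the X inactivation region, at 9.84, 9.82 and 6.77 CPM against 24.5, 24.0 and 0 CPM. miR-363-3p, which carries the seed of miR-92a, had 3, 2 and 4 counts at 15 Gy against 26, 6 and 0 counts at 0 Gy. These were 2.11, 4.91 and 2.08 CPM against 14.2, 5.13 and 0 CPM, so the second libraries of both doses were close. With a library of 1 week left out, the log2 fold change of miR-363-3p ranged from -2.46 to -0.97. miR-138-5p had 1, 0 and 5 counts against 12, 15 and 0 counts. Their log2 fold changes ran from -2.60 to -1.09, and none passed over all rows or among known miRNAs alone.

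**Figure D1:**
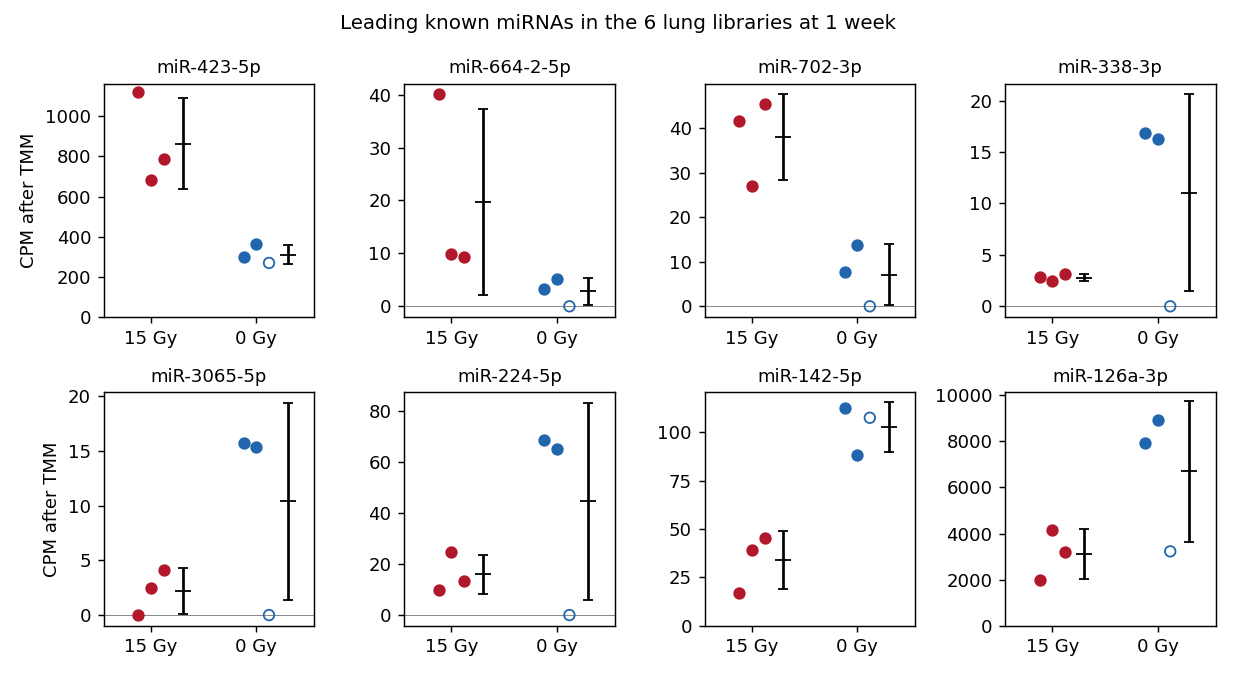
Levels of 8 known miRNAs in lung at 1 week, in CPM after TMM scaling on a linear axis from 0, with 15 Gy in red and 0 Gy in blue, one point per library, the shallow 0 Gy library as an open circle, and the bar as mean and SD (n = 3 libraries each). miR-423-5p at 15 Gy lies between 682 and 1120 CPM, above all 0 Gy libraries, and miR-142-5p at 15 Gy lies at or below 45.3 CPM, under all 0 Gy libraries.

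On the higher side, miR-423-5p had the smallest p. It is produced from the Nsrp1 locus and is widely expressed, and it is followed as a circulating miRNA in heart failure in humans. Its level was 1120, 682 and 789 CPM in the 15 Gy libraries, against 297, 362 and 269 CPM in the 0 Gy libraries, the shallow one included with 5 counts. The groups did not overlap, and the mean was 864 ± 228 CPM at 15 Gy and 309 ± 47.7 CPM at 0 Gy (SD, n = 3 each). The level was 2.77-fold higher at 15 Gy, with a log2 fold change of 1.47 (SE 0.31, 95% interval 0.85 to 2.08) and an adjusted p of 0.0774 with edgeR. It was 1.18 (adjusted p = 0.2) without the shallow library and 1.42 (adjusted p = 0.0322) among known miRNAs alone. The row listed as a homolog of hsa-miR-3184-3p, which in humans is annotated antisense to miR-423, had 1456, 261 and 1438 counts at 15 Gy against 482, 403 and 4 counts at 0 Gy. In the same libraries miR-423-5p had 1593, 278 and 1515 counts at 15 Gy.

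miR-664-2-5p and miR-664-3p are the arms of a hairpin that resembles a small nucleolar RNA. miR-664-2-5p had 57, 4 and 18 counts in the 15 Gy libraries, against 6, 6 and 0 counts in the 0 Gy libraries, or 40.1, 9.82 and 9.37 CPM against 3.27, 5.13 and 0 CPM. Most of the difference in means lay in the first 15 Gy library. The log2 fold change was 2.29 (SE 0.65, adjusted p = 0.212 over all rows and 0.0322 among known miRNAs, both edgeR). Over all rows without the shallow library it was 2.03. miR-664-3p was at 92.8, 160 and 109 CPM against 57.2, 48.8 and 0 CPM. Its log2 fold change was 1.40 (SE 0.47, adjusted p = 0.298 in edgeR), and 0.97 without the shallow library.

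miR-702-3p, which is made from a short intron without Drosha cleavage in mice, was at 41.5, 27.0 and 45.3 CPM in the 15 Gy libraries, against 7.62, 13.7 and 0 CPM in the 0 Gy libraries. Every 15 Gy library was above both deep 0 Gy libraries. The log2 fold change was 1.91 (SE 0.56, adjusted p = 0.231 over all rows and 0.0359 among known miRNAs, both edgeR). Over all rows without the shallow library it was 1.67.

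Of the next miRNAs on this side, let-7b-3p was at 158, 150 and 178 CPM against 61.5, 66.7 and 0 CPM, and miR-532-3p at 18.98, 19.6 and 19.8 CPM against 9.80, 4.28 and 0 CPM. For miR-1249, miR-99b-3p and miR-6328 all 15 Gy libraries were likewise above both deep 0 Gy libraries, with log2 fold changes of 1.65, 2.23 and 1.79, while for miR-25-5p they overlapped (14.8, 12.3 and 4.69 CPM against 4.90, 3.42 and 0 CPM). None passed over all rows or among known miRNAs alone. let-7b-3p, miR-532-3p, miR-99b-3p and miR-25-5p are the less abundant arms of their hairpins.

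With edgeR, another 5 known miRNAs passed when known miRNAs were fitted alone and the shallow library was left out, and 4 of them did not pass with that library kept, while miR-547-3p was not tested there. miR-328a-3p was at 527, 326 and 521 CPM in the 15 Gy libraries, against 155, 157 and 807 CPM in the 0 Gy libraries. The value of 807 CPM came from the shallow library, at 15 counts, and without it the log2 fold change among known miRNAs alone was 1.57 (adjusted p = 0.0376 in edgeR), while with it over all rows it was 0.41 (SE 0.57). miR-92b-3p was at 11140, 4329 and 6775 CPM against 2090, 2530 and 7744 CPM, miR-320-3p at 313, 250 and 301 CPM against 137, 104 and 323 CPM, and miR-671 at 71.0, 27.0 and 66.1 CPM against 13.6, 21.4 and 108 CPM. In each, the 15 Gy libraries were above both deep 0 Gy libraries, and the shallow library lay above at least 2 of the 3 libraries at 15 Gy. miR-547-3p, the lower one of these, had 1, 1 and 1 counts at 15 Gy against 15, 7 and 0 counts at 0 Gy, and it had enough counts to be tested only through the deep 0 Gy libraries, where it is high.

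The 10 most abundant known miRNAs had no member past an unadjusted p of 0.05. miR-143-3p, a smooth muscle miRNA, was at 98572, 49557 and 114352 CPM in the 15 Gy libraries, against 62553, 62695 and 92976 CPM in the 0 Gy libraries, and the groups overlapped. miR-10a-5p, which lies in a Hox cluster, was at 66086, 51125 and 57191 CPM against 36907, 37581 and 36405 CPM, without overlap, with a log2 fold change of 0.65 (SE 0.34, adjusted p = 0.497 in edgeR), though against the 0 Gy libraries of 4 weeks it was -0.28. miR-99b-5p was at 61578 CPM in the second 15 Gy library and at 24706 and 12794 CPM in the others, against 17544 to 29522 CPM at 0 Gy, and miR-125a-5p of the same cluster had the same order of the 15 Gy libraries. The remaining ones (miR-26a-5p, miR-30a-5p, miR-3596a, miR-181a-5p and miR-146b-5p, beside miR-126a-5p above) had log2 fold changes from -0.31 to 0.33.

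Lists of miRNAs were then read by cell type and process, beside a median log2 fold change of 0.09 over all known miRNAs tested, of which 127 were positive and 115 negative. All 3 tested members of the list for myeloid cells and leukocytes were negative, with a median of -1.25. Both miR-142 arms were at an unadjusted p under 0.05, beside 4.01% of all rows lower at that p. The arms come from the same hairpin, so they are not independent. In contrast, miR-223-3p, the granulocyte miRNA, was at 45.7, 85.9 and 51.6 CPM against 76.2, 85.6 and 53.8 CPM, the last from 1 count. The summed level of the list was 72.4 to 145 CPM at 15 Gy and 161 to 232 CPM at 0 Gy. The value of 161 CPM came from the shallow library, where it stood for 3 counts. Both endothelial members, the miR-126a arms, were negative (median -0.67), with a summed level of 7292 to 14836 CPM at 15 Gy and 8496 to 23955 CPM at 0 Gy. The part of cell numbers in these values was not tested. Of 8 members tested for fibroblasts and fibrosis, 6 were negative and 2 positive (median -0.45), and miR-21-5p was at 888, 493 and 1392 CPM against 776, 677 and 753 CPM.

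Of the p53 targets, 3 were positive and 4 negative (median -0.11). miR-34a-5p, the best known of them, was at 76.6, 88.4 and 97.9 CPM in the 15 Gy libraries, against 74.6, 74.4 and 53.8 CPM in the 0 Gy libraries, a log2 fold change of 0.31 (SE 0.33) that was 0.04 without the shallow library. Of the 5 members for NF-kB and inflammation, 2 were positive and 3 negative (median -0.14). miR-146a-5p, a feedback inhibitor of Toll-like receptor signalling, was at 748, 893 and 750 CPM against 1918, 1323 and 430 CPM. Its log2 fold change was -0.64 (SE 0.46). miR-146b-5p, which has the same seed, was at 0.32 (SE 0.33), and at 0.14 without the shallow library. The other positive member, miR-21-5p, was at 0.33 (SE 0.44). No member of either list had an unadjusted p under 0.05 with all libraries, and without the shallow library miR-146a-5p was at -1.24 (unadjusted p = 0.0145, adjusted p = 0.262 in edgeR).

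The list of miRNAs made by noncanonical routes (mirtrons, snoRNA-like hairpins, and those that bypass Drosha or Dicer) had 6 of 7 members positive and the highest median, 1.21, or 1.00 without the shallow library. Of these, 3 were at an unadjusted p under 0.05 (miR-664-2-5p, miR-664-3p and miR-702-3p), 2 of which passed among known miRNAs alone, beside 6.41% of all rows higher at that p and 2.48% of known miRNAs that passed alone. miR-664-2-5p and miR-664-3p come from the same hairpin, so they are not independent. The list was chosen with earlier results of these data known, so its rank is a description and no test. miR-484 and miR-877 had log2 fold changes of 0.92 and 1.21, and miR-451-5p, which is made by Argonaute 2, of -0.04. The summed level of the list was 598 to 633 CPM at 15 Gy and 276 to 376 CPM at 0 Gy. The median GC content of its members was 56.6%, against 47.8% for all known miRNAs tested with a sequence.

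Of the 14 epithelial members tested, 8 were positive and 6 negative. Their median was 0.29, which turned to -0.25 without the shallow library. Among the negative ones, miR-141-3p was at 569, 751 and 1020 CPM against 1473, 1582 and 699 CPM. Among the positive ones, miR-182 had a log2 fold change of 0.88 (SE 0.55). The 3 lymphocyte members had a median of 0.52, and without the shallow library the same 3 were at 1.37 (miR-150-3p), -0.67 (miR-150-5p) and -0.07 (miR-342-3p). The medians were -0.005 for smooth muscle, -0.10 for ciliated cells, -0.11 for the miR-17-92 and related clusters, -0.10 for let-7 and 0.22 for the 11 members of miR-30. Of these 11, miR-30c-1-3p and miR-30c-2-3p were higher at an unadjusted p under 0.05 (log2 fold changes of 1.14 and 1.32), beside 6.41% of all rows. Without the shallow library both were at 0.90 (unadjusted p = 0.08 and 0.127 in edgeR), and the miR-30 median was 0.05. Of the 70 miRNAs of the imprinted Dlk1-Dio3 region, 5 were tested, with a median of 0.22. Of the 5 red cell members, 4 were negative (median -0.21), and the summed level of that list, mostly miR-486-5p, was 27295 to 60332 CPM at 15 Gy and 8273 to 36728 CPM at 0 Gy. The part of red cells in the other results was not tested beyond leaving miR-486-5p out. The 1 tested hypoxia member had a log2 fold change of 0.29. The list for heart and skeletal muscle had 1 of 4 members tested, at a summed level of 54.8 to 57.8 CPM at 15 Gy and 0 to 52.2 CPM at 0 Gy, and the liver miRNA was at 0 to 0.703 CPM at 15 Gy and 0 CPM at 0 Gy.

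**Figure D2:**
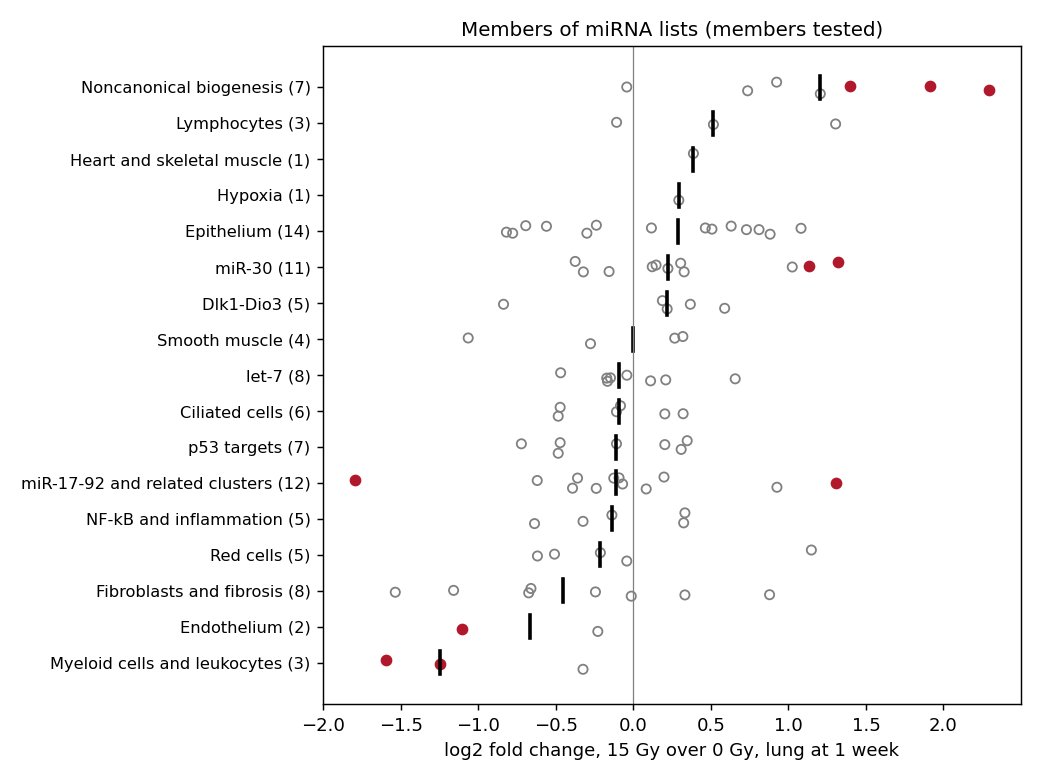
Log2 fold changes, 15 Gy over 0 Gy, of the tested members of each miRNA list in lung at 1 week, one circle per miRNA, filled where the unadjusted p is under 0.05 in edgeR, with the median of the list as a black bar and the number of tested members in parentheses. The lists run from noncanonical biogenesis at the top (median 1.21) to myeloid cells and leukocytes at the bottom (median -1.25). They were chosen with earlier results of these data known.

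Grouped by seed, all 5 tested members of the miR-15/16 family (seed AGCAGCA) were negative, with log2 fold changes from -0.71 to -0.51. miR-16-5p, a regulator of the cell cycle and also abundant in red cells, was at 1038, 1433 and 1037 CPM in the 15 Gy libraries, against 2427, 2026 and 484 CPM in the 0 Gy libraries. The direction held under each scaling and without the shallow library, where the 5 were at -1.33 to -0.996, and miR-497-5p was at 0.12 against the 0 Gy libraries of 4 weeks. miR-15b-5p and miR-16-5p share one locus on chromosome 2, and miR-497-5p and miR-195-5p one on chromosome 10, so the 5 are not independent. miR-322-5p lies on chromosome X 5213 bases from miR-450a-5p, which was described above. A shared direction was not particular to this family. The 4 tested members with the seed AAAGUGC, that of miR-17-5p, were all negative, and the 2 with the seed UGGGAGA both positive. The let-7 seed GAGGUAG was mixed, with 3 of 8 positive. The families described were chosen after their values were seen.

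The 3 members of the miR-29 family (seed AGCACCA), which target collagen messages, were negative as well. miR-29a-3p was at 447, 960 and 528 CPM against 1292, 1372 and 376 CPM, and miR-29c-3p at 28.1, 29.5 and 48.4 CPM against 81.7, 113 and 0 CPM. Their log2 fold changes were -0.68 for miR-29a-3p, -1.54 for miR-29b-3p (2, 2 and 11 counts against 18, 11 and 1 counts) and -1.16 for miR-29c-3p, with no p under 0.05 over all libraries, and at an unadjusted p of 0.0199, 0.0644 and 0.0172 without the shallow library. The other fibrosis miRNA with a low p, miR-214-3p, was at 47.8, 61.4 and 57.8 CPM against 27.8, 27.4 and 53.8 CPM. The miR-142 arms do not share a seed. In the miR-25/92 family (seed AUUGCAC), miR-363-3p was negative and the other 3 members positive.

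Known miRNAs that are reverse complements of each other were found for 29 pairs, by a match of every base over at least 18 bases. In 16 pairs both members were tested, and in 15 of these the members had the same direction. Where the totals were within a factor of 2 (12 pairs), the log2 fold changes differed by a median of 0.11. The let-7a-5p complement miR-3596a was among the 10 most abundant rows, at 22641, 2959 and 27545 counts at 15 Gy and 31054, 14487 and 231 counts at 0 Gy. miR-29b-3p and miR-29c-3p likewise have the partners miR-3587 and miR-3556b. Their totals were less alike, at 45 and 72 counts and at 427 and 953 counts, as were those of let-7a-5p and miR-3596a, at 17650 and 98917 counts. The counts of known miRNAs above may thus include members that are not separate measurements.

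The fold changes followed the GC content of the mature sequences. Across the 218 known miRNAs tested that had a sequence, Pearson's r between GC content and log2 fold change was 0.54 and Spearman's rho 0.56, as a description over miRNAs that share the same 6 libraries. The median log2 fold change was -0.46 for the 19 miRNAs at up to 35% GC, -0.34 for the next 58 at up to 45%, 0.20 for 95 at up to 55%, 0.53 for 38 at up to 65% and 0.91 for the 8 above, all of which were positive. Without the shallow library r was 0.56 (n = 241). In the miRNAs of higher level it was 0.43 with all libraries (n = 109) and 0.48 without the shallow one (n = 120). The 10 named miRNAs on the higher side had a median GC content of 62.3%, and the 10 on the lower side 37.7%. They were picked by these same fold changes, so this restates the correlation and adds no separate evidence. Length had an r of 0.08, and the median log2 fold change was 0.10 for major arms and 0.12 for minor arms.

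**Figure D3:**
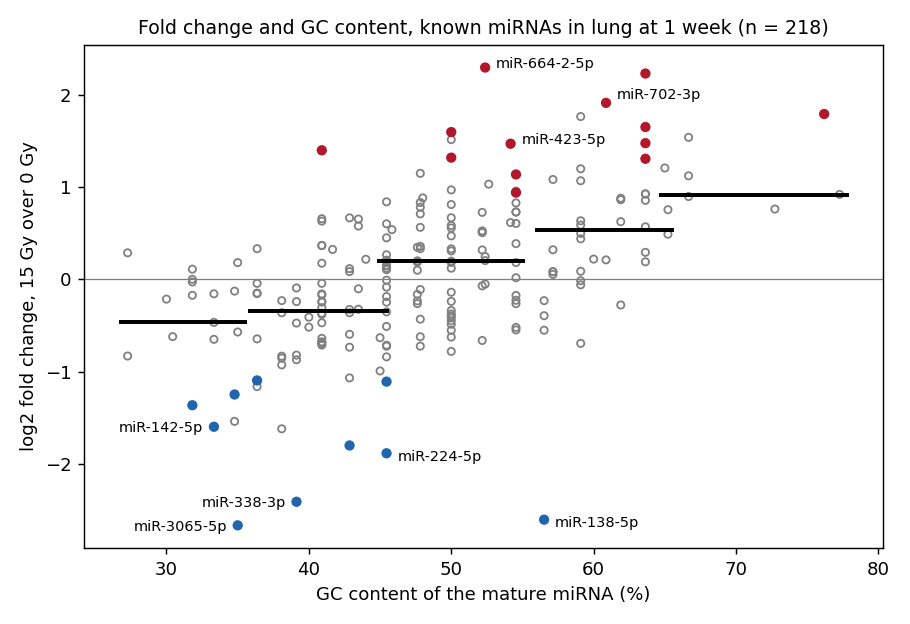
GC content of the mature miRNA in percent against the log2 fold change, 15 Gy over 0 Gy, in lung at 1 week for 218 known miRNAs. Filled points have an unadjusted p under 0.05 in edgeR (red higher, blue lower at 15 Gy), and black bars give the medians of 5 GC classes, from -0.46 in the lowest to 0.91 in the highest.

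The same was read in each library, as r between GC content and the log2 level relative to the mean over the lung libraries, without the 2 shallow ones (pseudocount of 10 CPM). It was 0.46, 0.46 and 0.31 in the 15 Gy libraries at 1 week, against -0.38, -0.19 and 0.07 in the 0 Gy libraries at 1 week. The other 12 lung libraries ran from -0.58 to 0.42, so libraries of a group could differ as much as the groups did at 1 week. The relation was also present against the 0 Gy libraries of 4 weeks (r = 0.57) and, less so, against the 15 Gy libraries of 2 weeks (r = 0.34), comparisons that share the 15 Gy libraries with the one above. It was 0.08 between the 0 Gy groups of 4 weeks and 1 week and 0.19 for 15 Gy over 0 Gy in blood at 1 week. GC dependence of the libraries and dose cannot be told apart in these 6 libraries.

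**Figure D4:**
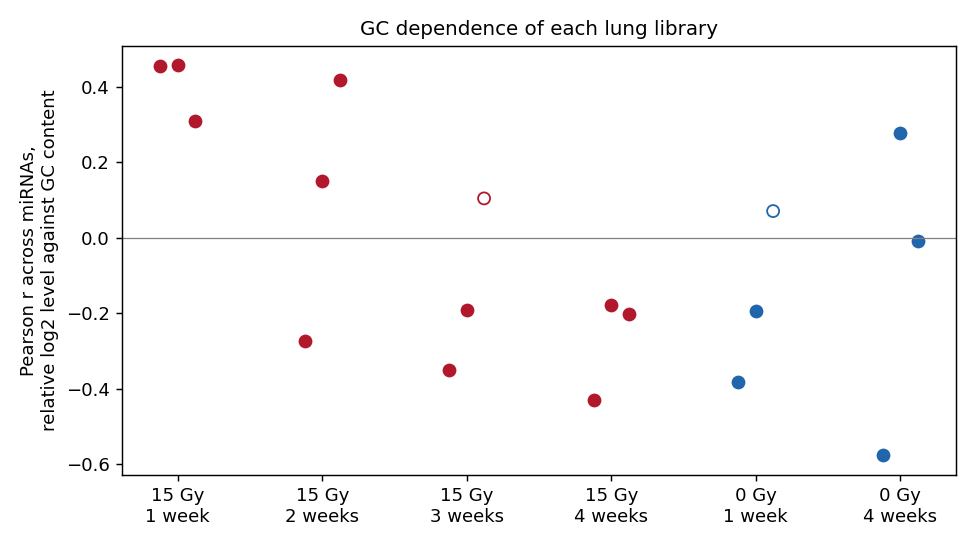
Pearson's r across 218 known miRNAs between GC content and the relative log2 level of each lung library, one point per library, 15 Gy in red and 0 Gy in blue, the 2 shallow libraries as open circles. The 3 libraries at 15 Gy and 1 week lie between 0.31 and 0.46, and those at 0 Gy and 1 week between -0.38 and 0.07.

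An offset linear in GC content was fitted for each library among known miRNAs with a sequence, an alternative added after the data were seen. With it, 7 of 218 known miRNAs passed, against 6 in the same fit without it, 3 higher and 4 lower. miR-338-3p (log2 fold change -2.01), miR-3065-5p (-2.07), miR-224-5p (-1.94), miR-423-5p (1.24) and miR-664-2-5p (2.14) passed with and without the offset. miR-138-5p (-2.82) and miR-664-3p (1.64) passed only with it. miR-702-3p was at 1.42 and did not pass with it (adjusted p = 0.131), and miR-142-5p was at -0.87 (unadjusted p = 0.0708). miR-126a-5p, miR-26a-5p, miR-3596a and miR-451-5p changed sign with it.

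Other values became smaller by more than 1.5 times with the offset. On the higher side, miR-6328 was at 0.59 with the offset, against 1.83 in the same fit without it, miR-1249 at 0.94 against 1.65, miR-532-3p at 0.74 against 1.46 and miR-25-5p at 0.50 against 1.24. miR-92b-3p was at 0.40 against 0.99, miR-671 at 0.78 against 1.58 and miR-99b-5p at 0.11 against 0.74. Of the miRNAs made by noncanonical routes, miR-484 was at 0.14 against 0.84 and miR-877 at 0.52 against 1.27. On the lower side, miR-142-3p was at -0.72 against -1.28, miR-374-5p at -0.68 against -1.43 and miR-450a-5p at -0.63 against -1.13. Likewise, miR-141-3p was at -0.33 against -0.64 and miR-146a-5p at -0.29 against -0.62. All 3 members of the miR-29 family were closer to 0 with it, miR-29a-3p at -0.32 against -0.64, miR-29b-3p at -0.74 against -1.33 and miR-29c-3p at -0.74 against -1.24. In the miR-15/16 family, miR-15b-5p, miR-195-5p and miR-322-5p were at -0.50, -0.34 and -0.49 with the offset. In the same family miR-16-5p moved less, to -0.35 against -0.47, and miR-497-5p moved the other way, to -0.73 against -0.64. miR-214-3p was at 0.42 against 1.02. Some values grew with the offset, such as miR-21-5p at 0.90 against 0.42.

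Among the lung libraries that were not shallow, those outside 15 Gy at 1 week had miR-338-3p at 5.14 CPM or more. It was at 21.2, 17.6 and 9.42 CPM at 15 Gy and 2 weeks, 12.9, 10.9 and 0 CPM at 3 weeks and 9.04, 9.53 and 7.93 CPM at 4 weeks, and at 13.8, 10.0 and 5.14 CPM at 0 Gy and 4 weeks. The 0 at 3 weeks came from a library of 8132 counts. In the edgeR test of 15 Gy at 1 week against 15 Gy at 2 weeks it was the only row that passed of 499 (0.2%), with a log2 difference of -2.52 (SE 0.45, adjusted p = 0.0315). It was not called when any of 5 of the 6 libraries compared was left out (adjusted p from 0.210 to 0.363) and was still called without the third 15 Gy library of 2 weeks (adjusted p = 0.0321), with differences of -2.82 to -2.12. With the 0 Gy libraries of 1 and 4 weeks pooled as the control, its log2 fold change at 1 week was -2.08 (adjusted p = 0.0430). miR-3065-5p, its antisense partner, differed from 2 weeks by -2.79 (adjusted p = 0.239).

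miR-142-5p was at 33.8 ± 15.0 CPM at 15 Gy and 1 week, against 104 ± 28.6 CPM at 2 weeks, with a log2 difference of -1.61 (SE 0.52, adjusted p = 0.544 in edgeR) (SD, n = 3 libraries each). At 2 weeks its log2 fold change over 0 Gy at 1 week was 0.02, a value that shares the 0 Gy libraries. For miR-423-5p the log2 fold change over the same 0 Gy libraries was 0.91 at 2 weeks, and its difference between 1 and 2 weeks was 0.56 (SE 0.31, adjusted p = 0.771). Against the 0 Gy libraries of 4 weeks, the log2 fold change at 1 week was 0.64 for miR-423-5p, 0.89 for miR-664-2-5p, 1.71 for miR-702-3p, -0.66 for miR-224-5p, -1.31 for miR-142-5p and -0.63 for miR-126a-3p, and none passed.

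**Figure D5:**
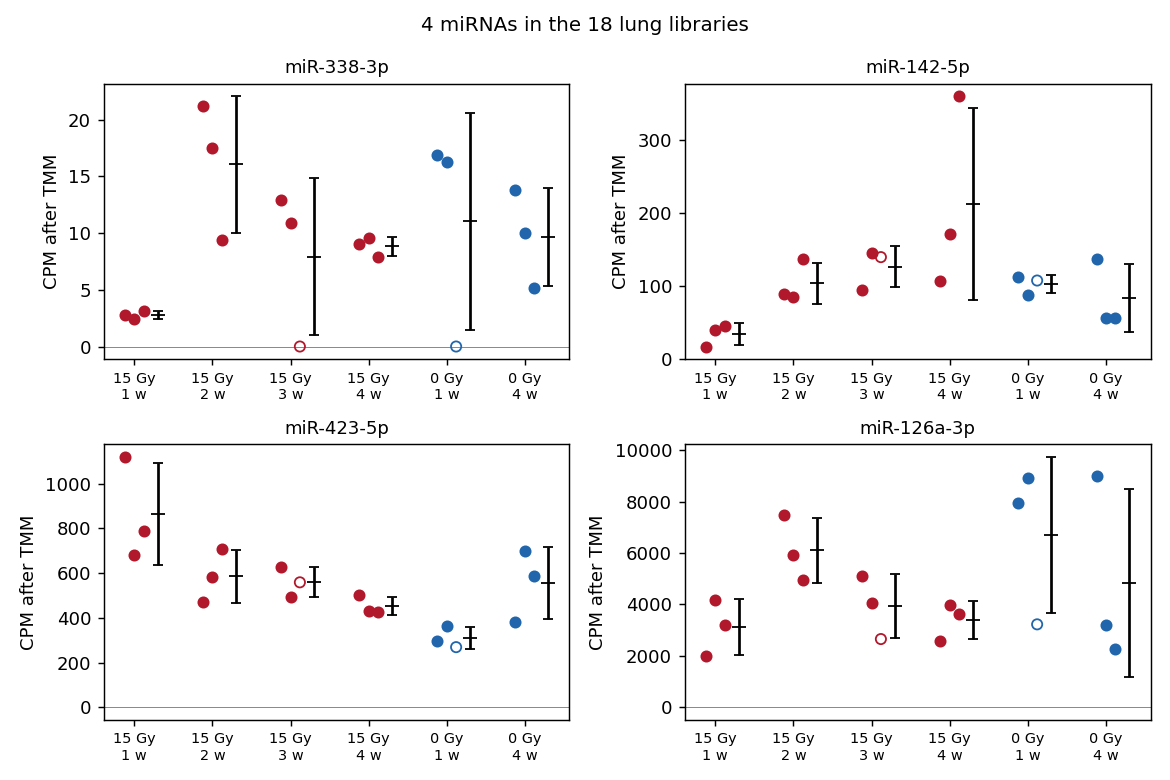
Levels of 4 miRNAs in all 18 lung libraries, in CPM after TMM scaling from 0, with 15 Gy at 1 to 4 weeks in red and 0 Gy at 1 and 4 weeks in blue, one point per library, the 2 shallow libraries as open circles, and bars as mean and SD (n = 3 libraries). miR-338-3p at 15 Gy and 1 week lies at 2.45 to 3.12 CPM, under every other deep library.

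In blood at 1 week the libraries of both doses overlapped for miR-142-5p and miR-423-5p, for the latter only through the third 0 Gy library at 455 CPM. miR-338-3p had 1 count in all blood libraries of 15 Gy at 1 week and none in those of 0 Gy, and miR-224-5p had none in either, so neither could be compared. miR-142-5p was at 93.4 ± 22.5 CPM at 15 Gy and 92.5 ± 15.8 CPM at 0 Gy (SD, n = 3 each), and miR-423-5p at 357 ± 90.7 CPM and 255 ± 173 CPM. The difference between tissues in the log2 fold change, lung minus blood, was -1.53 (SE 0.85) for miR-142-5p and 1.03 (SE 0.59) for miR-423-5p, and in this test 1 of 576 rows passed (0.174%), which was not a known miRNA. The blood libraries that stand exchanged in a supplementary copy of the counts are among these groups, and the deposited column names were used here.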

How the data were processed

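The authors sequenced pooled RNA (TruSeq small RNA, HiSeq 2000), trimmed the reads (Trim Galore 0.2.5), mapped them to miRBase with Bowtie 1.1.1, removed other RNA classes and predicted new miRNAs with miRanalyzer, with the build rn4 named in the submitters' notes. The deposited table gives unnormalized read counts per miRNA, as the authors made them. All 947 rows of the 18 lung libraries were fitted together in R 4.3.3 with edgeR 4.0.16 (filterByExpr by group, TMM, quasi-likelihood test, Benjamini-Hochberg adjustment over all rows tested, threshold 0.05), tested first on simulated data. The standard error is the log2 fold change over the root of F, and intervals are 1.96 standard errors. DESeq2 1.42.0 and other scalings, filters, controls and libraries were alternatives, and the fits with GC offsets, the known miRNAs or DESeq2 without the shallow library, and the exchanged blood libraries were added after seeing the data. Members and lists were chosen with earlier results of these data known. Named were the 10 known miRNAs of smallest p in each direction, the 10 most abundant, those passing in any fit, and list or seed-family members chosen after their values were seen. Sequences and gene spans are from RefSeq GRCr8.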

Additional observations from a re-analysis of the deposited data

Results flagged for a closer look

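The log2 difference of miR-338-3p in lung between 15 Gy at 1 week and 15 Gy at 2 weeks was -2.52 (adjusted p = 0.0315 in edgeR), which passed the test of the difference itself. It rested on 11 counts in the 3 libraries of 1 week and did not pass with most of the single libraries left out, as given above, nor with both shallow lung libraries left out.

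The log2 fold change in lung minus that in blood at 1 week was -9.96 for a row listed as a new miRNA at rn4 chr19:25638547-25638840 (adjusted p = 0.000506 in edgeR). Its counts were 2126, 1055 and 3392 in lung at 15 Gy against 4407, 2562 and 27 in lung at 0 Gy, and 74, 19 and 44 in blood at 15 Gy against 0, 0 and 0 in blood at 0 Gy. Since blood at 0 Gy was at 0, the fitted size depends on the prior count and is no estimate of a fold. With the 2 doubtful blood libraries exchanged, the value was -2.50 and did not pass (adjusted p = 0.853).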

How the results depend on the processing

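Over all rows, the edgeR fit called 0 at an adjusted p of 0.05, as it did with each single lung library of 1 week left out (0 to 0) and with the replicate block (0), whereas DESeq2 called 6, DESeq2 without the shallow 0 Gy library 14, DESeq2 without both shallow lung libraries 22 and the pooled 0 Gy control 2, and 52 rows were at an unadjusted p under 0.05. Of known miRNAs, 0 were called over all rows, against 1 with DESeq2, 6 with known miRNAs alone, 6 with those that had a sequence, 7 with the GC offset, 11 with known miRNAs alone and the shallow 0 Gy library left out, 3 with known miRNAs alone and both shallow libraries left out, 7 with DESeq2 without both, 3 with DESeq2 without the shallow 0 Gy library and 1 with the pooled control. The cause of these shifts was not tested.

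At an unadjusted p under 0.05, the 13 known miRNAs higher at 15 Gy became 21 with no filter, 0 with a mean count above 1000 (where fewer rows were tested), 5 with library totals, 3 with DESeq2, 24 with known miRNAs alone and with those that had a sequence, 26 without both shallow libraries, 27 and 30 with known miRNAs alone without both or without the shallow 0 Gy library, 7 against 0 Gy at 4 weeks, and 21 with the GC offset, and they ranged from 5 to 15 with a library left out. The 10 lower ones became 1 with a mean count above 1000, 6 with DESeq2 and with the GC offset, 16 with known miRNAs alone, 3 with the 6 libraries alone, 20 without both shallow libraries by edgeR or DESeq2, and 30 and 27 with known miRNAs alone without both or without the shallow 0 Gy library, with a range of 6 to 26 with a library left out, the 26 being without the shallow one. With the replicate block they were 11 and 8. Same-numbered libraries of both doses shared only a number (correlations of their deviations -0.16, -0.09 and -0.07).

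The GC correlation of 0.54 was 0.47 at a mean count above 1000, 0.62 against the pooled control, 0.0406 with the GC offset by its construction, and 0.45 to 0.56 with a library left out. The comparison with 15 Gy at 2 weeks called 1 row, 6 with DESeq2, 0 without the shallow libraries, 0 with the replicate block and 0 to 1 with a library left out. Lung minus blood called 1 row, 2 with DESeq2, 0 with the blood libraries exchanged and 1 to 2 with a lung or blood library of 1 week left out.

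Of 1242 alternative values of single miRNAs, 1162 kept direction and side of the threshold, 44 passed it only in the alternative and 36 changed sign. With library totals, miR-143-3p (-0.18), miR-30a-5p (-0.24), miR-125a-5p (-0.17), miR-181a-5p (-0.11), miR-146b-5p (-0.085), miR-328a-3p (-0.13) and miR-21-5p (-0.059) turned negative. Against the pooled control, miR-143-3p (-0.42), miR-30a-5p (-0.24), miR-181a-5p (-0.0023) and miR-21-5p (-0.032) did. Against 0 Gy at 4 weeks, miR-143-3p (-1.10), miR-10a-5p (-0.28), miR-30a-5p (-0.62), miR-181a-5p (-0.34), miR-30c-2-3p (-0.58), miR-877 (-0.0052), miR-486-5p (-0.10) and miR-21-5p (-0.40) did, and miR-497-5p turned positive (0.12). With the GC offset, miR-26a-5p (0.12), miR-3596a (0.42), miR-126a-5p (0.30) and miR-451-5p (0.52) turned positive, and miR-451-5p (0.0090) also with miR-486-5p left out.

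With a library of 1 week left out, the value changed sign for miR-126a-5p without 15 Gy replicate 1 (range -0.73 to 0.033), for miR-99b-5p without 15 Gy replicate 2 (-0.40 to 1.08), for miR-125a-5p without 15 Gy replicate 2 or the shallow library (-0.65 to 0.62), for miR-21-5p without 15 Gy replicate 3 (-0.0006711 to 0.53), for miR-30a-5p without the shallow library (-0.11 to 0.25), for miR-328a-3p without 0 Gy replicate 1 or 2 (-0.12 to 1.36) and for miR-451-5p without 15 Gy replicate 1 or 3 or 0 Gy replicate 1 (-0.37 to 0.092). Depth limited the low miRNAs most, since 1 count in the shallow library was worth 53.8 CPM.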
